A study of Mus musculus with 41 samples.

Results

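Sox9 encodes an HMG-box transcription factor of the SRY-related family that mouse chondrocytes need to form and to switch on cartilage matrix genes such as Col2a1 and Acan. The gene lies at the edge of a very large stretch with few other genes, and mouse studies have placed distal enhancers of Sox9, some of them active in chondrocytes, in that stretch. The region described here is mm9 chr11:111500000-112800000, a window of 1.3 Mb with Sox9 at about chr11:112643500-112649100 on the plus strand. It thus reached 1143.5 kb before the start of Sox9 and 156.5 kb beyond that start. Its members were all peaks of 8 deposited lists whose centre lay in the window, 144 of 155773 peaks in all. Membership used position alone, not the height or width of a peak. In the gene order of the RefSeq annotation of GRCm38.p6, another build used for order only, Kcnj2 comes before Sox9 and Slc39a11 after it, with predicted and clone-named genes between them. Between Kcnj2 and Sox9 that annotation has 5 long non-coding RNAs, and 3 of them lie between the predicted gene Gm11677 and Sox9.

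The lists came from chromatin immunoprecipitation sequencing (ChIP-seq), which maps the DNA bound by a protein. Runx2, the transcription factor that osteoblasts require and that also acts in maturing chondrocytes, was precipitated through a FLAG tag. The tag was carried on the endogenous gene in Runx2-BioFL/+ knock-in mice on C57BL/6, and the cells were rib chondrocytes (2 libraries) and calvarial osteoblasts (2 libraries) at postnatal day 1. Each pair of libraries had a single list, and the labels do not say whether the pair was pooled. Foxa2, a forkhead factor of hypertrophic chondrocytes, came from wild-type C57BL/6 rib chondrocytes, and Jun, a subunit of AP-1, from wild-type C57BL/6 calvarial osteoblasts, both at postnatal day 1 with 1 library each. The primary cells were dissected and digested, not sorted for the ChIP, so other cells of rib or calvaria may have been present. The cell line was 3T3, a mouse embryonic fibroblast line, overexpressing Runx2BioFL or GFP (the background control for the FLAG antibody) after 3 days in osteogenic medium with ascorbic acid phosphate, β-glycerophosphate and 100 ng/ml BMP-2, or at day 0 (1 library each). The study held 41 samples, of which 10 were ChIP libraries, 7 input libraries, 1 an IgG control and 23 ATAC-seq libraries. ATAC-seq, input and IgG data were not analysed here.

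Each group had 1 list without scores, so no spread between replicates could be had and no test was made. Intervals are 95% Wilson intervals for shares and exact Poisson intervals for densities, and they cover counting error only, since neighbouring peaks are not independent. Chondrocytes came only from rib and osteoblasts only from calvaria, so cell type and skeletal site cannot be told apart, and depth, on which the number of peaks depends, is not given in the labels. The labels of 2 lists from 3T3 cells are crossed. By their descriptions, one named after GFP day 3 belongs to Runx2 cells of day 0, and one named after Runx2 day 0 belongs to GFP cells of day 3. Both are used under their own names, with exchanged values beside some of the results that rest on them. Elsewhere values are given for each list as named.

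The Sox9 window held a larger share of the peaks of either chondrocyte list than of either osteoblast list. The chondrocyte Runx2 list placed 26 of its 15390 peaks there (0.169%, 0.115 to 0.247%), against 5 of 10241 peaks of the osteoblast Runx2 list (0.0488%, 0.0209 to 0.114%). Foxa2 in chondrocytes placed 37 of 14738 peaks there (0.251%, 0.182 to 0.346%) and Jun in osteoblasts 6 of 14937 (0.0402%, 0.0184 to 0.0876%). For Runx2 the 2 intervals were barely apart, and they overlapped in reduced lists. In the wider 50% of each list the shares were 13 of 7695 for chondrocytes (0.169%, 0.0988 to 0.289%) and 4 of 5120 for osteoblasts (0.0781%, 0.0304 to 0.201%). In the leading 50% of each file they were 10 (0.13%, 0.0706 to 0.239%) and 1 (0.0195%, 0.00345 to 0.111%). The intervals of Foxa2 and Jun were apart in all 3 forms of the lists, but these are different proteins. Depth can differ between the lists, and its part in these shares was not tested. In 3T3 cells the list for Runx2 day 3 had 47 of 50180 peaks in the window (0.0937%, 0.0704 to 0.125%), while that named for GFP day 3 had 5 of 16799 (0.0298%, 0.0127 to 0.0697%). The list named for Runx2 day 0 had 18 of 31013 (0.058%, 0.0367 to 0.0917%) and that for GFP day 0 had 0 of 2475, with an interval up to 0.155%. With the crossed lists exchanged, the counts were 5 for Runx2 day 0 and 18 for GFP day 3.

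**Figure D1:**
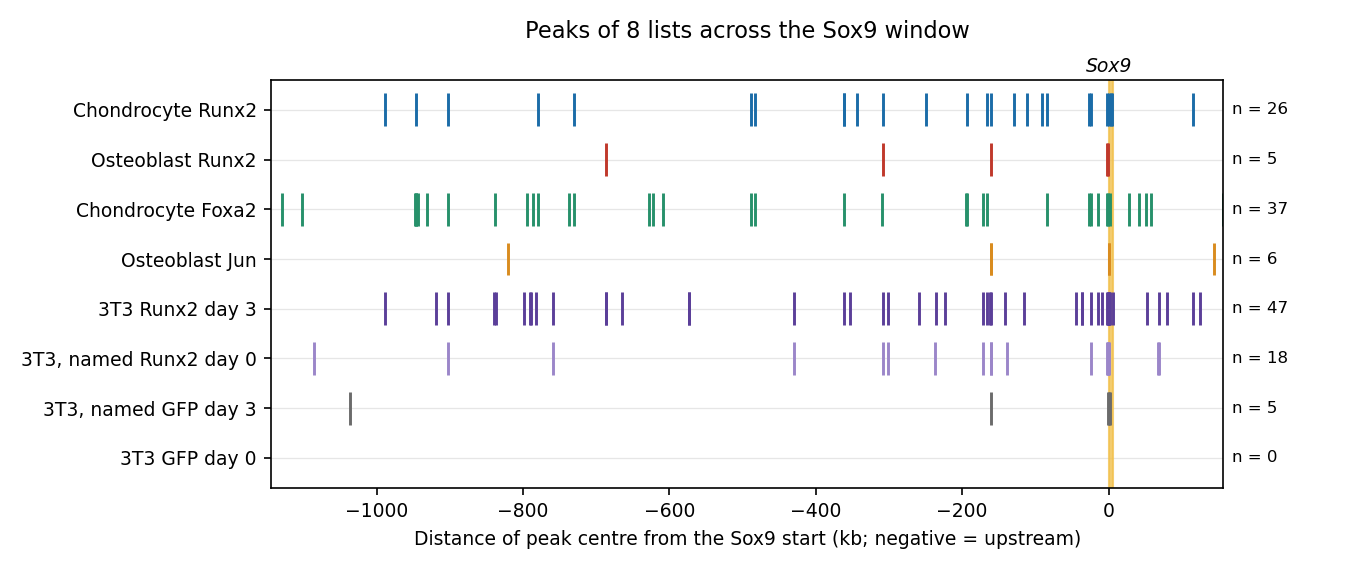
Peaks of the 8 lists across the Sox9 window. Each mark is the centre of 1 peak, plotted by its distance from the start of Sox9 in kb (negative before the gene), with 1 row per list; the chondrocyte rows hold 26 Runx2 and 37 Foxa2 peaks, the osteoblast rows 5 Runx2 and 6 Jun peaks, and the row for GFP day 0 is empty.

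Set against the chromosome, the window stood above the rate of chromosome 11 in the chondrocyte lists alone. Foxa2 had 28.5 peaks per Mb in the window (20 to 39.2), against 7.58 per Mb over the rest of chromosome 11, a ratio of 3.76 (2.65 to 5.18). Chondrocyte Runx2 had 20 peaks per Mb there (13.1 to 29.3) against 9.43, a ratio of 2.12 (1.39 to 3.11). Osteoblast Runx2 had 3.85 per Mb (1.25 to 8.98) against 7.18, a ratio of 0.535 (0.174 to 1.25), and osteoblast Jun 4.62 (1.69 to 10) against 10, a ratio of 0.46 (0.169 to 1). The upper ends of both osteoblast intervals reached the rate of the chromosome, so neither list was shown to be sparser there.

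Against the rate of chromosome 11, the 3T3 lists did not share the chondrocyte pattern. For Runx2 day 3 the window had 36.2 peaks per Mb against 38.5 over the rest of chromosome 11, a ratio of 0.938 (0.689 to 1.25). The list named for Runx2 day 0 had 13.8 against 25, a ratio of 0.554 (0.328 to 0.875), while that named for GFP day 3 had 3.85 against 13.3, a ratio of 0.289 (0.0938 to 0.674). Chromosome 11 was itself denser than the genome in every list with a window peak. Against the rest of all chromosomes the ratio was 3.34 for chondrocyte Runx2 and 0.965 for osteoblast Runx2, 4.97 for Foxa2 and 0.794 for Jun, so the osteoblast lists lay near the rate of the genome. In 3T3 cells it was 1.85 for Runx2 day 3, 1.15 for the list named for Runx2 day 0 and 0.588 for that named for GFP day 3. For Runx2 day 3 the interval of the window density, 26.6 to 48.1 per Mb, lay above the 19.5 of the rest of all chromosomes.

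Stretches of equal length elsewhere give the same comparison in counts. Of 1965 stretches as long as the window and outside it, 4 held 37 or more Foxa2 peaks (0.204%), and 56 held 26 or more chondrocyte Runx2 peaks (2.85%). As many peaks or more were held by 42.7% of the stretches for osteoblast Runx2, 48% for Jun, 20.2% for Runx2 day 3, 33.7% for the list named for Runx2 day 0 and 54.1% for the list named for GFP day 3. The window was chosen for Sox9 with earlier results known, so these shares are descriptions.

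**Figure D2:**
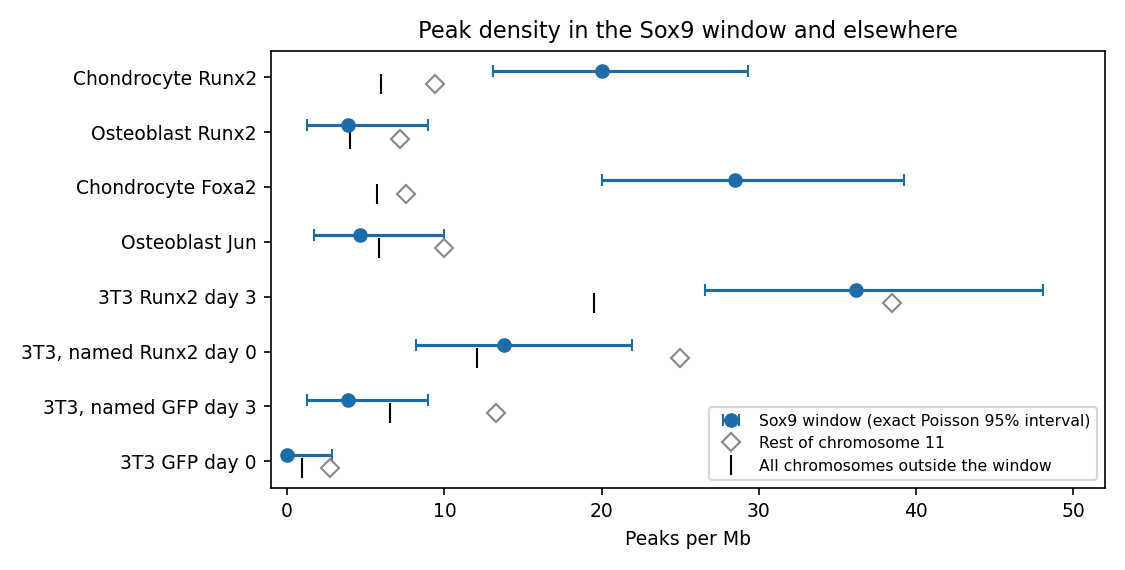
Peaks per Mb for each list in the Sox9 window (filled circles, with exact Poisson 95% intervals), over the rest of chromosome 11 (diamonds) and over all chromosomes outside the window (vertical ticks). Foxa2 (28.5 against 7.58) and chondrocyte Runx2 (20 against 9.43) lie above the chromosome, while osteoblast Runx2 (3.85 against 7.18) lies below it.

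The window itself lies mostly before the gene, with 87.2% of its length more than 10 kb before Sox9. For both chondrocyte lists the interval of the share of peaks there held this value. Of the 26 chondrocyte Runx2 peaks, 21 were more than 10 kb before Sox9 (80.8%, 62.1 to 91.5%), 4 were in the gene or within 10 kb of it and 1 was more than 10 kb beyond it. For Foxa2 these counts were 29 (78.4%, 62.8 to 88.6%), 3 and 5, for osteoblast Runx2 3, 2 and 0, and for Jun 3, 2 and 1. The gene spans only 5.6 kb of the 1300 kb window. In each list the share of peaks in it or within 10 kb exceeded that part's share of length, though these counts are small. The median position was -483 kb for Foxa2 and -180 kb for chondrocyte Runx2, where negative distances lie before the start of Sox9 and run to the peak centre. Osteoblast Runx2 had a median of -160.5 kb over only 5 peaks. The outermost chondrocyte Runx2 peaks lay at -989 kb and 115.7 kb, and the outermost Foxa2 peaks at -1129.1 kb and 156.1 kb, the last within 1 kb of the end of the window. Peaks past the window were not examined.

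The peaks were spread unevenly along the desert. The 100 kb just before the gene held the most peaks, 29 at 13 sites: 6 of chondrocyte Runx2, 6 of Foxa2, 2 of osteoblast Runx2, 1 of Jun, 9 of Runx2 day 3, 4 of the list named for Runx2 day 0 and 1 of the list named for GFP day 3. The stretch between -200 and -100 kb held 23 peaks at 14 sites. That from the start of Sox9 to 100 kb beyond it held 20 peaks at 16 sites, the most by sites. Between -600 and -500 kb there were 2 peaks, both of Runx2 day 3 and at 1 site. Chondrocyte Runx2 had its longest empty stretch, 241.1 kb, between its peaks at -729.7 and -488.6 kb. Between -700 and -600 kb, inside that stretch, Foxa2 had 3 peaks, at -627.55, -621.85 and -608.35 kb, and osteoblast Runx2 had 1, at -687.11 kb.

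Chondrocyte Runx2 and Foxa2 met at many places in the window. Of the 26 chondrocyte Runx2 peaks, 12 overlapped a Foxa2 peak by at least 1 bp (46.2%, 28.8 to 64.5%), against 18.3% of the whole chondrocyte Runx2 list. Read from the other side, 12 of 37 Foxa2 peaks overlapped a chondrocyte Runx2 peak (32.4%, 19.6 to 48.5%), against 19.2% of the whole Foxa2 list. The interval of the first share lay above its whole-list value and that of the second just above its own. The second no longer did so where overlap had to cover 50% of the shorter peak (24.3%, 13.4 to 40.1%, against 15.8%) or in the leading 50% of both files (20%, 8.07 to 41.6%, against 17.6%). The first did under the stricter overlap (34.6%, 19.4 to 53.8%, against 15.1%), and in the leading 50% its interval began at the list's value (40%, 16.8 to 68.7%, against 16.8%). In the wider 50% of both lists, where fewer possible partners are left, 2 of 13 chondrocyte Runx2 peaks overlapped Foxa2 (15.4%, 4.33 to 42.2%), against 11.1% of that reduced list, and 8.7% of 23 Foxa2 peaks overlapped chondrocyte Runx2, against 11.7%. Among the wide peaks neither share was thus set apart from its list. The overlapping pairs were close in detail: their centres were 57.5 bp apart in the median (0 to 154 bp). A Foxa2 centre lay within 1 kb of 16 of the 26 chondrocyte Runx2 centres, against 24.6% of the whole list. Of the 12 overlapping chondrocyte Runx2 peaks, 11 lay more than 10 kb before Sox9, where 21 of the 26 lay. A raised share with Foxa2 was not particular to chondrocyte Runx2. Foxa2 overlapped 40% of 5 osteoblast Runx2 peaks (11.8 to 76.9%, against 4.93%) and 17% of Runx2 day 3 peaks (8.89 to 30.1%, against 3.24%). It overlapped 22.2% of peaks named for Runx2 day 0 (9 to 45.2%, against 3.4%). No Jun peak and no peak named for GFP day 3 overlapped Foxa2. Foxa2 was itself denser in the window, and the part of this in the overlaps was not tested.

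File position gives one further view, although what the order of lines reflects is not stated in the labels or files. In the first 50% of the chondrocyte Runx2 file, 5 of 10 window peaks overlapped a peak of the whole Foxa2 list (50%, 23.7 to 76.3%), against 20.9% of all peaks there. In the second 50%, 7 of 16 did (43.8%, 23.1 to 66.8%), against 15.8%. The first chondrocyte Runx2 peak of the window in file order, chr11:111913654-111913903 at -729.72 kb, stood on line 163 of 15390. It overlapped the Foxa2 peak chr11:111913669-111913938 on line 446 of 14738, itself the first Foxa2 peak of the window in file order, and no other list. The next, chr11:112449605-112449968 at -193.71 kb on line 188, likewise overlapped Foxa2 alone, as did chr11:112160294-112160417 at -483.14 kb on line 1335. After its first, Foxa2 had its earliest window peaks on lines 1421 and 1431, at -26.79 kb with a chondrocyte Runx2 partner and at -785.9 kb with none.

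**Figure D3:**
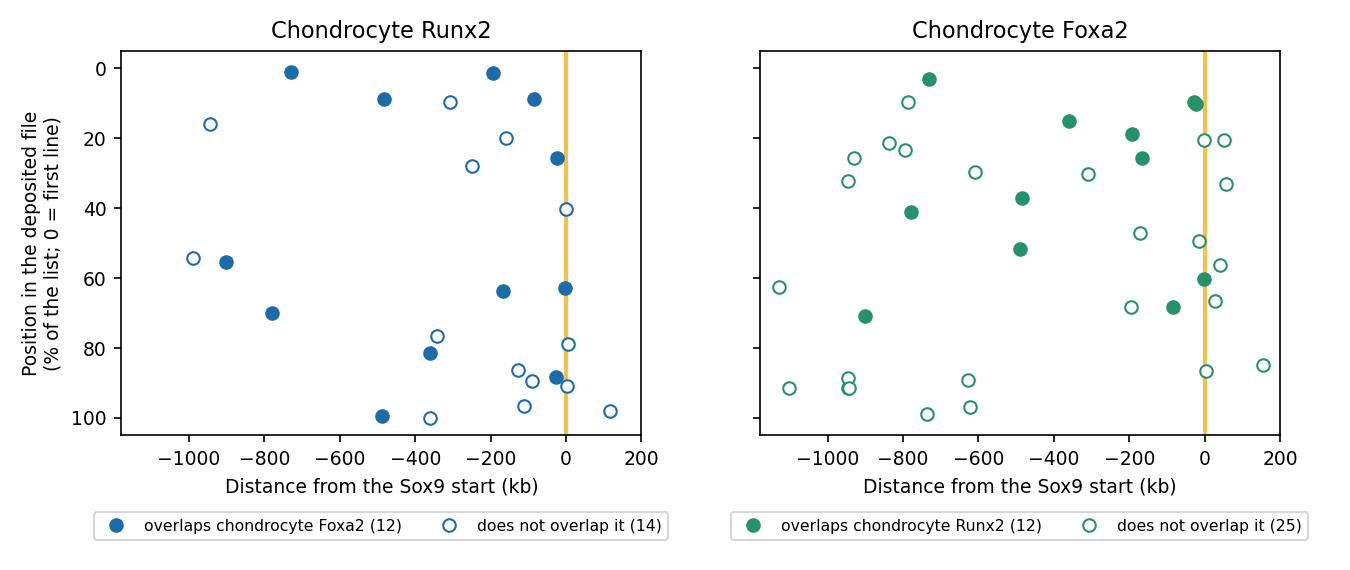
Position of each chondrocyte Runx2 and Foxa2 window peak in its file, in percent of the list, plotted against its distance from the start of Sox9 in kb (vertical line); filled circles overlap the other factor and open circles do not. Chondrocyte Runx2 peaks span 1.06 to 99.9% of their file and Foxa2 peaks 3.03 to 99%.

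Chondrocyte Runx2 peaks were then compared with Runx2 of other cells. Of the 26, 3 overlapped an osteoblast Runx2 peak (11.5%, 4 to 29%), against 29.9% of the whole list, which left 23 chondrocyte-only peaks (88.5%, 71 to 96%). This share was not set apart from the list where overlap had to cover 50% of the shorter peak (4 to 29%, against 27.6%), in the leading 50% of both files (1.79 to 40.4%, against 31.5%) or in the wider 50% (1.37 to 33.3%, against 13.8%). With Runx2 day 3 of 3T3 cells, 9 overlapped (34.6%, 19.4 to 53.8%), against 52.7%, a value inside the interval. Among the wider 50% of both lists this share was 15.4% (4.33 to 42.2%), against 26.8%. With the list named for Runx2 day 0, 5 overlapped (19.2%, 8.51 to 37.9%), against 48.2%, and with that named for GFP day 3, 1 did (3.85%, 0.682 to 18.9%), against 13.6%. None overlapped GFP day 0, where the interval reached 12.9%, against 2.86% of the whole list. With the crossed lists exchanged, the shares were 3.85% for Runx2 day 0, whose interval then held the whole-list value of 13.6%, and 19.2% for GFP day 3, against 48.2%. Jun met 2 of the 26 (7.69%, 2.14 to 24.1%), against 17.8%. In no other list were 8 of the 26 (30.8%, 16.5 to 50%), against 21.3% of the whole list.

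Chondrocyte Runx2 peaks with and without a Foxa2 partner were also compared for recurrence in 3T3 cells. With a Foxa2 partner, 4 of 12 overlapped Runx2 day 3 (33.3%), and without one 5 of 14 did (35.7%). Over the whole list these shares were 28.5% and 58.1%. The intervals of the window shares, 13.8 to 60.9% and 16.3 to 61.2%, each held both whole-list shares. With so few peaks they cannot decide whether the window has the difference seen over the whole list.

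**Figure D4:**
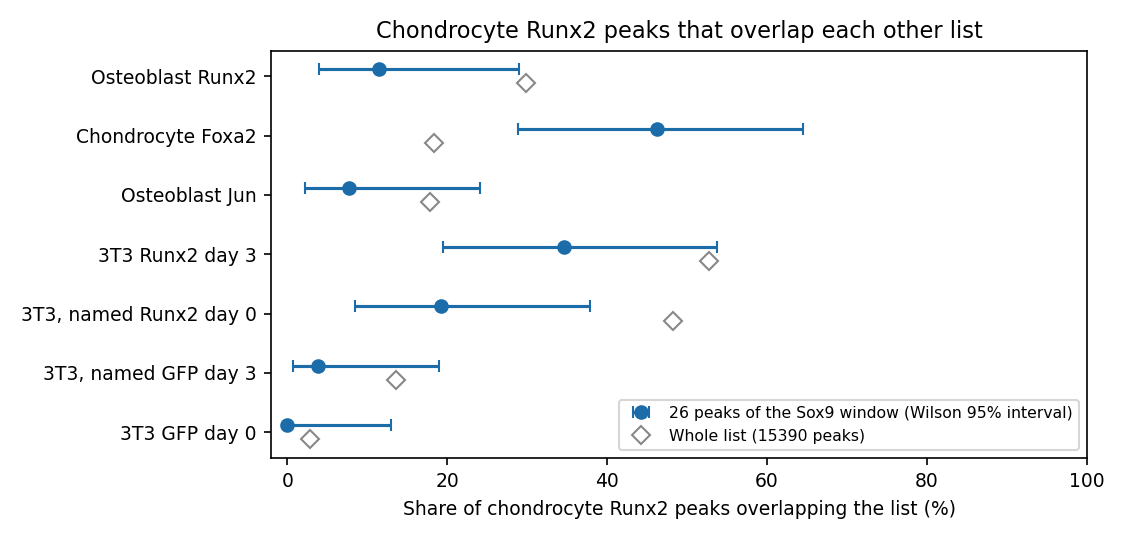
Share of chondrocyte Runx2 peaks that overlap each other list, in percent, for the 26 peaks of the Sox9 window (circles with Wilson 95% intervals) and for the whole list of 15390 (diamonds). Foxa2 is the list with a higher share in the window (46.2 against 18.3%), with an interval above the whole-list value. The interval lies below that value for the list named for Runx2 day 0 (19.2 against 48.2%) and, narrowly, for osteoblast Runx2 (11.5 against 29.9%).

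Of the 5 osteoblast Runx2 peaks, 0 were in no other list (interval up to 43.4%), against 21.7% of the whole list, so the window was not set apart there. Of these 5, 3 overlapped a chondrocyte Runx2 peak (60%, 23.1 to 88.2%), against 45.2% of the whole osteoblast list, 4 overlapped Runx2 day 3 (against 58.5%), 2 overlapped Foxa2 (against 4.93%) and 1 overlapped Jun (against 25.3%). The 2 without a chondrocyte Runx2 partner lay at -687.11 kb, with Runx2 day 3, and at -0.57 kb, with GFP day 3 and Runx2 day 0 as these lists are named. The first 3 in file order were those at -160.49, -0.57 and -687.11 kb.

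Of the 37 Foxa2 peaks, 21 were in no other list (56.8%, 40.9 to 71.3%), against 72.8% of the whole list. Osteoblast Runx2 overlapped 2 of the 37 (against 3.48%) and Jun 0, where the interval reached 9.41%, against 1.87%. Runx2 day 3 overlapped 8 (21.6%, 11.4 to 37.2%), against 10.8%, and the list named for Runx2 day 0 overlapped 4 (10.8%, 4.29 to 24.7%), against 7.08%. Of the 6 Jun peaks, 1 overlapped osteoblast Runx2 (against 17.6%), 2 chondrocyte Runx2 (against 18.6%) and 2 Runx2 day 3 (against 38%). The first 3 Jun peaks in file order lay at 144.5 kb, -820.53 kb and -0.04 kb, and those at 144.5 and -820.53 kb were in no other list.

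Between the days, 13 of the 47 Runx2 day 3 peaks overlapped the list named for Runx2 day 0 (27.7%, 16.9 to 41.8%), against 51.4% of the whole list, and 2 overlapped the list named for GFP day 3 (4.26%, 1.17 to 14.2%), against 15.9%. Of the 18 peaks named for Runx2 day 0, 12 overlapped Runx2 day 3 (66.7%, 43.7 to 83.7%), against 81.8%, 0 overlapped GFP day 0 (interval up to 17.6%), against 4.37%, and 5 overlapped chondrocyte Runx2 (27.8%), against 27.2%. Of the 5 peaks named for GFP day 3, 2 overlapped Runx2 day 3, against 41.9%. With the exchange, 4.26% of the Runx2 day 3 peaks overlapped Runx2 day 0 and 27.7% GFP day 3, and 40% of the 5 day 0 peaks overlapped day 3. Of the 47 day 3 peaks, 9 overlapped chondrocyte Runx2 (19.1%, against 18.4%), 4 osteoblast Runx2 (8.51%, against 14.1%) and 8 Foxa2 (17%, 8.89 to 30.1%, against 3.24%), and 26 were in no other list (55.3%, 41.2 to 68.6%, against 38.4%).

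Merging peaks that overlap gave 93 sites in the window of 82629 in all. Of the 93, 37 were held by chondrocyte lists only (39.8%), against 18.9% of all sites, 37 by 3T3 lists only, against 49.4%, and 3 by osteoblast lists only, against 10.3%. Both chondrocyte factors were present at 13 sites (14%), against 3.55%. Sites in 2 or more lists were 29 of 93 (31.2%), against 38.9%, and sites in 5 or more were 3 (3.23%), against 4.22%. These shares depend on list size, and the 3T3 Runx2 lists are the longest.

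The 3 sites held by 5 or more lists lay at -308.81, -160.5 and -2.25 kb. At -308.81 kb (chr11:112334498-112334876) stood chondrocyte Runx2 on line 1504, osteoblast Runx2 on line 10208 of 10241, Foxa2, Runx2 day 3 and the list named for Runx2 day 0. There the chondrocyte Runx2 peak, chr11:112334688-112334779, and the Foxa2 peak, chr11:112334498-112334668, did not themselves overlap, and the osteoblast and 3T3 peaks joined them. At -160.5 kb (chr11:112482890-112483119) stood 6 lists, every one with a window peak but Foxa2, and it was the only place where the list named for GFP day 3 overlapped chondrocyte Runx2. At -2.25 kb (chr11:112641068-112641428) stood Runx2 of chondrocytes and osteoblasts, Foxa2, Runx2 day 3 and the list named for Runx2 day 0. The -160.5 kb site holds a FLAG peak in cells named for GFP, or in Runx2 cells at day 0 if the crossed labels are right.

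Of the widest sites, that at -686.94 kb spanned 638 bp (osteoblast Runx2 and Runx2 day 3), that at -0.46 kb spanned 625 bp and that at -572.76 kb spanned 619 bp (Runx2 day 3 alone).

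Near the gene itself all 7 lists with window peaks were present. Within 10 kb of Sox9 or in it lay 26 peaks, of which 15 were before the start, 10 in the gene and 1 after it. Of the 26, 12 were of Runx2 day 3 or of the list named for Runx2 day 0. Within 1 kb of the start there were 12 peaks of 6 lists, with Foxa2 the list that had none. The start is known here only approximately, so distances this short are approximate too.

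At the start the chondrocyte Runx2 peak chr11:112643361-112643518 (-0.06 kb, line 6206 of 15390) overlapped the Jun peak chr11:112643374-112643552 (-0.04 kb) and no other list. A second Jun peak, at 0.21 kb, overlapped both 3T3 Runx2 lists and not chondrocyte Runx2. Just before the start, at -0.46 kb, a 625 bp site joined osteoblast Runx2 (-0.57 kb), the lists named for Runx2 day 0 (-0.7 and -0.28 kb) and for GFP day 3 (-0.35 kb), and Runx2 day 3 (-0.39 kb). Chondrocyte Runx2 was not among them, so near the start the chondrocyte and osteoblast Runx2 peaks did not overlap, while at -2.25 kb they did. The sites were nearly adjacent: the 625 bp site ended at chr11:112643357 and that of chondrocyte Runx2 and Jun began at chr11:112643361. Merging peaks within 250 bp joined them to 1 site, which was the site added to those in 5 or more lists under that setting.

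Inside the gene, chondrocyte Runx2 had peaks at 2.72 kb (chr11:112646006-112646433, its widest in the window at 428 bp) and at 4.54 kb, both in no other list, and Foxa2 had 1 at 2.41 kb, also in no other list. The peaks at 2.41 and 2.72 kb did not overlap but lay only 14 bp apart. The list named for GFP day 3 had 3 of its 5 peaks at -0.35, 0.87 and 1.7 kb, and chondrocyte Runx2 overlapped none of these 3. By its name this list comes from cells without tagged Runx2, and with the exchange it would come from Runx2 cells at day 0. Runx2 day 3 had further peaks at -8.61, -1.05, 1.37 and 6.42 kb, of which only that at -1.05 kb overlapped another list, Foxa2 at -1.21 kb. Exon and intron positions in mm9 were not used here.

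**Figure D5:**
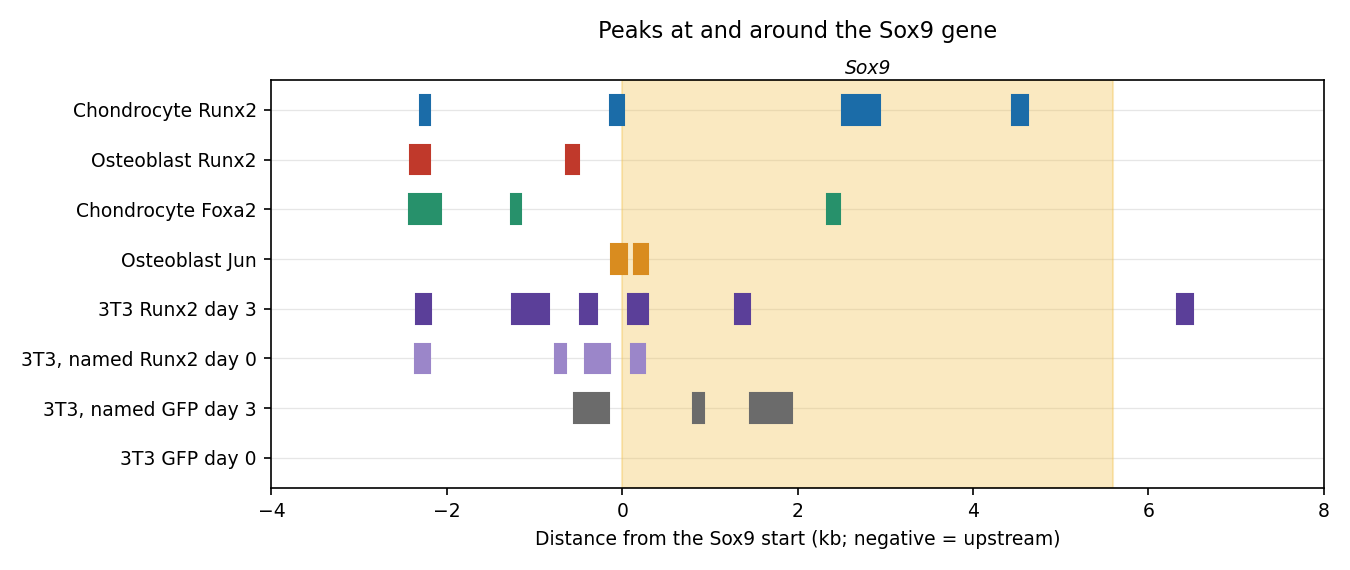
Peaks in Sox9 and close to it, drawn as bars of their true width against distance from the gene start in kb, with 1 row per list. The Runx2 day 3 peak at -8.61 kb lies outside the drawn range. Chondrocyte Runx2 has peaks at -2.25, -0.06, 2.72 and 4.54 kb, and Foxa2 at -2.25, -1.21 and 2.41 kb.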

How the data were processed

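Rib chondrocytes, calvarial osteoblasts and 3T3 cells were profiled by ChIP-seq, and the authors deposited 1 peak list per ChIP group with chromosome, start and end of each peak and no score, as the deposited files show. Per the submitters' processing notes, the genome build was mm9 and the tools included Bowtie and DiffBind. Peak calling, its threshold and read depth are not given in the sources used here. Fewer or shallower reads give fewer peaks, so peaks of the window are given as a share of their own list, and differences between lists may reflect depth.

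The window and the lists compared were chosen with earlier results of these data known. Peaks belonged to the window by their centre, overlap meant at least 1 bp, and overlapping peaks were merged to sites. Named sites were those in 5 or more lists, all peaks within 10 kb of Sox9, the nearest peaks to its start, the first 3 in file order of each primary-cell list, the 3 widest sites and the most crowded 100 kb; other places were chosen after their values were seen. Densities were set against chromosome 11, all chromosomes and stretches of the same length. The planned motif search of the Sox9 promoter was not run. Overlaps were checked against bedtools 2.31.1 (0 of 56 pairs differed) and the counting steps were tested on simulated data. Python 3.11.15, NumPy 2.4.6, pandas 2.3.3, SciPy 1.17.1 and matplotlib 3.10.9 were used.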

Additional observations from a re-analysis of the deposited data

How the results depend on the processing

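Each result was recomputed with one choice changed. A count was taken as moved when it changed by over 1.5 times, and a share, density ratio or median distance when it left the interval of its reported value. Of 111 recomputed values 75 stayed within these limits and 36 moved. Changes of direction were not scored. The density ratio of Runx2 day 3, for example, was 0.938 over the rest of chromosome 11 and 1.85 over all chromosomes. Chosen after seeing the data were, for the overlaps, the leading 50% of every file, centres within 1 kb, and removal of peaks that overlap a GFP list for chondrocyte Runx2 and Foxa2. No value passed these limits under membership by any overlap, centres within 250 bp or 1 kb, overlap of 50% of the shorter peak, merging within 250 bp, the upstream part alone or the nearest edge. Smaller changes occurred, such as 80 sites for 93, and 4 in 5 or more lists for 3, on merging within 250 bp, and Foxa2 at 34.6% of chondrocyte Runx2 peaks with 50% overlap and 61.5% with centres within 1 kb.

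The leading 50% of every file holds fewer peaks by construction: 10 chondrocyte Runx2, 20 Foxa2, 1 osteoblast Runx2, 1 Jun, 16 Runx2 day 3, 1 in the list named for GFP day 3 and 11 in that for Runx2 day 0. It left 39 sites, 0 in 5 or more lists, with 9 chondrocyte-only, 1 shared and 0 osteoblast-only Runx2 peaks; 0% of chondrocyte Runx2 peaks overlapped Jun or the list named for GFP day 3, and 100% of osteoblast Runx2 peaks (1 of 1) overlapped chondrocyte Runx2. The wider 50% left 13 chondrocyte and 4 osteoblast Runx2, 23 Foxa2, 4 Jun, 28 Runx2 day 3, 2 in the list named for GFP day 3 and 8 in that for Runx2 day 0. In it chondrocyte Runx2 overlapped Foxa2 at 15.4% (against 11.1% of the reduced list), Runx2 day 3 at 15.4% (26.8%), and the crossed lists at 0% (24.9% for that named for Runx2 day 0 and 8.71% for that named for GFP day 3). Each interval held the reduced list's value except that for the list named for Runx2 day 0 (up to 22.8%). Likewise 8.7% of Foxa2 peaks overlapped chondrocyte Runx2, against 11.7% of that reduced list. Removing peaks that overlap a GFP list left 1 osteoblast-only Runx2 peak.

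With the crossed lists exchanged, Runx2 day 0 had 5 and GFP day 3 had 18 peaks, chondrocyte Runx2 overlapped them at 3.85% and 19.2%, Runx2 day 3 overlapped them at 4.26% and 27.7%, and Runx2 day 0 overlapped day 3 at 40%. Over all chromosomes the density ratio was 3.34 for chondrocyte Runx2 (2.12 over chromosome 11), 1.85 for Runx2 day 3 and 1.15 for the list named for Runx2 day 0. The cause of these shifts was not tested.

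No paired analysis was possible because each group had 1 list. The motif search of the Sox9 promoter was not run. Small counts limit most shares: several rest on 5 or 6 peaks.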

Other observations

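At about -946 kb, a place chosen after its values were seen, 4 Foxa2 peaks stood close together, at -946.86, -946.61, -945.93 and -942.95 kb. The chondrocyte Runx2 peak at -945.66 kb lay beside them without overlapping any. It stood on line 2469 of 15390 in its file and overlapped no other list. None of the 4 Foxa2 peaks overlapped another list either. On the side after Sox9, Foxa2 had 5 peaks more than 10 kb from the gene, at 28.31, 42.12, 51.53, 58.09 and 156.13 kb, all in no other list. Chondrocyte Runx2 had 1 there, at 115.67 kb, overlapping Runx2 day 3.

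The Foxa2 file placed some peaks of the window on neighbouring lines. The peaks at -942.95, -946.86 and -1102.16 kb stood on lines 13486, 13487 and 13488, and those at -194.59 and -83.91 kb on lines 10053 and 10054. The Runx2 day 3 list did so too, with peaks at -840.15, -572.65 and -361.17 kb on lines 49058, 49059 and 49060. File position of such peaks is therefore not independent, and the reason for this order was not tested.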
